A study of Mus musculus with 16 samples.

Results

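The 10 genes described here encode general pluripotency factors: the transcription factors Pou5f1 (OCT4), Sox2 and Sall4, the chromatin-associated factor Utf1, the zinc-finger factor Zfp281, the RNA-binding proteins Lin28a and Lin28b, the paired proteins Dppa2 and Dppa4, and the co-repressor Trim28. They were chosen by gene symbol, and all 10 of 10 were present among the 52636 gene IDs of the count table and passed the filter on low counts, which left 12742 genes. RNA was sequenced from 16 libraries of mouse cells that the labels call RSC, derived from embryonic stem cells of the line CRAFR26. This line carries a c-RAF kinase construct that 4-hydroxytamoxifen (4OHT) switches on, which activates the kinase ERK through MEK. All 4 groups had spent 48 h in 250 nM of the FGF receptor inhibitor PD17 (PD173074) in place of the MEK inhibitor PD03 (PD0325901) of the usual culture, N2B27 medium with the Wnt secretion inhibitor IWP2 and the cytokine LIF. The group 0h was not induced, 2h and 4h had 2 h and 4 h of 250 nM 4OHT, and rev had 4 h of 4OHT followed by 2 h of MEK inhibitor, whose dose the labels do not give for this step. Each group held 4 libraries, 2 from clone 4 and 2 from clone 8. No group kept in 4OHT without MEK inhibitor up to the time of rev was analysed here, so rev and 4h also differ by 2 h of culture. The labels do not say whether the 2 libraries of a clone came from separate cultures, so the p-values rest on a spread between these libraries that may be partly technical. In the fit of group plus clone, used for the comparisons between groups, this spread also holds any difference between the clones' changes. Every group rests on 2 clones of 1 line.

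As background, OCT4 and SOX2 bind many enhancers of pluripotent cells jointly and keep one another and NANOG expressed. Unlike the naive factors, which are lost early when cells leave the ground state, OCT4, SOX2 and SALL4 are shared by naive and later pluripotent states. LIN28A and LIN28B block the maturation of the microRNA let-7, DPPA2 and DPPA4 work as a pair at promoters with mixed chromatin marks, and TRIM28 silences retrotransposons and guards imprints together with KRAB zinc-finger proteins. ERK signalling is the main signal that pushes mouse pluripotent cells towards later states.

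The libraries held between 4.31 M and 10.4 M counts, with a median of 8.03 M. Together, 9 features that each exceeded 1% of some library held 47.1% to 79.7% of the counts, and 1.25 to 5.41 M counts lay outside them. The rev library 1 of clone 8 stood apart as the one with the highest share in those features (79.7%) and the fewest counts outside them, so results that use rev are also given without it where a call changed. Levels are CPM of the kept genes, counts divided by the library's total over these genes after TMM scaling, and 3 counts were worth 0.21 to 0.908 CPM. All 6 ERK response genes examined were higher at 2h than at 0h, among them Egr1, an immediate-early transcription factor, by 7.30 on the log2 scale, and 4 of the 6 were lower in rev than at 4h. In a principal component analysis of the 500 most variable genes, the leading component (51.0% of the variance) set the clones apart. On the third (8.57%), every 0h and 4h library scored above 0 and every 2h and rev library below 0; the mean log2 CPM of the 10 genes in 2h and rev minus that in 0h and 4h ran from -0.29 for Dppa4 to 0.42 for Dppa2. The part of this component in the results below was not tested. Defining markers of other cell types were low: the summed markers of endoderm reached 5.24 CPM, of trophoblast 6.60, of mesoderm 5.33 and of fibroblasts 3.47 in any library. Summed neural markers were 32.2 to 76.4 CPM, naive markers 648 to 2116 CPM and formative or primed markers 91.5 to 218 CPM. The lowest naive sum in each group was 1210.3 CPM at 0h, 1309 at 2h, 648 at 4h and 1503 in rev. In bulk RNA, fewer cells of a type and less RNA per cell cannot be told apart.

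With both clones fitted together, 4 of the 10 genes stayed within a set margin across the groups and 6 changed. Pou5f1, Sox2, Sall4 and Trim28 had 95% intervals of the log2 change inside -0.5 to 0.5, less than 1.41-fold either way, in all 5 comparisons between groups. This was 4 of 10 genes against 21.2% of all tested genes. For 4h against 0h alone it was again 4 of 10 against 39.4%, so a level held within this margin at 4h was about as frequent among all genes. Intervals narrow with more counts, and these 4 genes had the highest levels of the 10. Their 0h means ran from 148 to 746 CPM, against at most 57.8 for the others. The shares over all genes were not matched for level, so they do not show that these 4 were unusually stable. Utf1, Lin28a, Lin28b, Zfp281, Dppa4 and Dppa2 differed among the 4 groups (edgeR's quasi-likelihood F test, Benjamini-Hochberg adjusted p under 0.05 over all tested genes). These were 6 of 10 genes, where 27.0% of all tested genes were called. All 6 were higher at 4h than at 0h, a call made in that direction for 7.35% of tested genes. The median log2 change of the 10 genes was 0.79 at 4h against 0h, beside -0.01 over all tested genes. In 5 of the 10 genes (Utf1, Lin28b, Zfp281, Dppa4 and Dppa2) every 4h library lay above every 0h library, which was the case for 7.37% of tested genes. A model without the clone term kept 3 of the 6 calls at 4h against 0h, those of Utf1, Zfp281 and Dppa4, and scaling by library totals, dominant features included, kept 5, losing Zfp281 (0.61, adjusted p = 0.162). The F test among the 4 groups also called Pou5f1 in clone 4 alone (adjusted p = 0.0110) and Sall4 in clone 8 alone (adjusted p = 0.0353). It called both when the clones' own changes were averaged (adjusted p = 0.0345 and 0.0353). That alternative was added after the values were seen and called 6003 of all tested genes rather than 3434.

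At 2h, 4 of the 10 genes were already higher than at 0h (9.49% of tested genes were called higher): Dppa2, Lin28b, Utf1 and Zfp281. Utf1, Lin28a and Dppa4 were higher at 4h than at 2h, 3 of 10 against 5.78% called higher overall. In rev, 4 of the 10, Utf1, Lin28a, Zfp281 and Dppa4, were lower than at 4h, against 5.10% of tested genes called lower. Lin28a and Dppa2 were still above 0h in rev, 2 of 10 against 5.51%. These comparisons share libraries, so their lists are not independent of each other. The plot of log2 changes gives all 5 comparisons gene by gene.

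**Figure D1:**
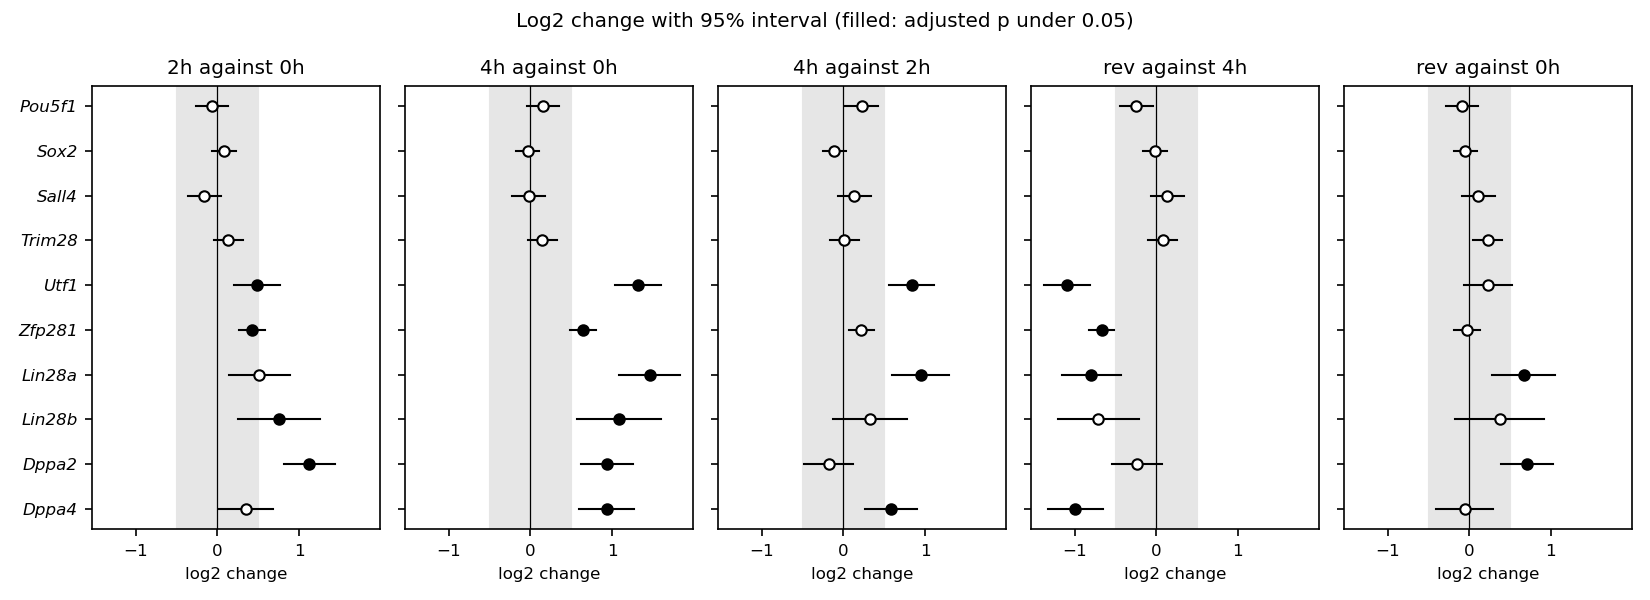
Log2 change of each of the 10 genes (rows) in the 5 comparisons between groups (panels), with the 95% interval as a line; filled points have an adjusted p under 0.05 and the grey band runs from -0.5 to 0.5. The intervals of Pou5f1, Sox2, Sall4 and Trim28 stay inside the band in every panel, while 6 genes lie to its right at 4h against 0h with filled points.

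The range of the 4 group means (highest minus lowest, log2 CPM with a prior count of 2) put the genes in order. It was 0.13 for Sox2, and 4.97% of tested genes had a smaller range. It was 0.23 for Trim28, 0.25 for Pou5f1 and 0.27 for Sall4, where 19.0%, 22.3% and 26.0% of genes were smaller. Zfp281 followed with 0.67, Dppa4 with 0.97, Dppa2 with 1.08, Lin28b with 1.15, Utf1 with 1.35 and Lin28a with 1.54, the last exceeded by few genes (98.1% were smaller). The median over all tested genes was 0.42, and genes were not matched for level.

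**Figure D2:**
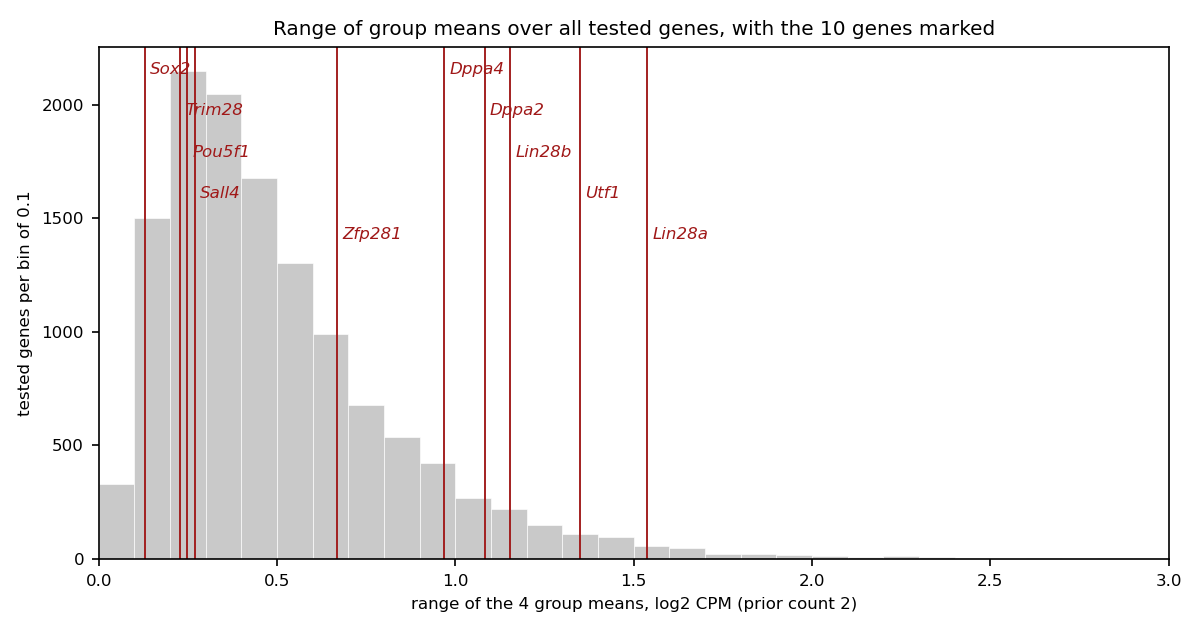
Histogram of the range of the 4 group means in log2 CPM over the 12742 tested genes (x axis, bins of 0.1; y axis, genes per bin), with a line for each of the 10 genes; 26 genes lie beyond the right edge at 3. Sox2, Trim28, Pou5f1 and Sall4 sit below the median of 0.42 and the other genes above it.

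Among the core transcription factors, Pou5f1 (ENSMUSG00000024406, chr17:35506018-35510772, plus strand), which encodes the POU factor OCT4, was measured at 150.2, 144, 147 and 149 CPM at 0h (clone 4 libraries 1 and 2, then clone 8 libraries 1 and 2, the order used for every gene). Gene positions are 1-based on GRCm38, from GENCODE M21. It stood at 134, 120.4, 158 and 151 CPM at 2h, 168, 175, 172 and 142 CPM at 4h, and 141, 121, 132 and 159.9 CPM in rev. The groups overlapped in every comparison, and the highest mean was 164 ± 15.1 CPM at 4h against 148 ± 2.77 at 0h (SD, n = 4). The log2 change at 4h against 0h was 0.16 with a 95% interval of -0.04 to 0.35 (adjusted p = 0.306). Within clone 4, Pou5f1 was higher at 4h than at 2h by 0.43 (0.20 to 0.65, adjusted p = 0.00387) and lower in rev than at 4h by 0.39 (adjusted p = 0.0087). In clone 8 the same changes were 0.03 and -0.10, but the clones' difference in rev against 4h did not pass the test (adjusted p = 0.258), and that at 4h against 2h was not tested. Over both clones Pou5f1 passed at 4h against 2h when the 4h library 2 of clone 8 was left out (0.31, adjusted p = 0.0346), likewise in rev against 4h (-0.33, adjusted p = 0.0301), and also when the clones' own changes were averaged, an alternative added after the values were seen (0.23 and -0.24, adjusted p = 0.0279 and 0.0254). Of the exon length of Pou5f1, 14.1% overlaps a gene of the opposite strand, and Pou5f1 has processed copies elsewhere in the genome, and it is not known how such reads were counted.

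Sox2 (ENSMUSG00000074637, chr3:34650405-34652461, plus strand), the HMG-box partner of OCT4, was the least variable of the 10. It was measured at 226, 201, 227 and 233 CPM at 0h, 236, 241, 235 and 227 CPM at 2h, 212, 219, 211 and 225 CPM at 4h, and 210.4, 209.7, 226 and 212 CPM in rev. The 4h libraries all lay below the 2h libraries, by a small margin (at most 225.3 against at least 226.6 CPM), as did the rev libraries (at most 226.2 CPM), and the other pairs of groups overlapped. The change was -0.03 at 4h against 0h (95% interval -0.17 to 0.11), -0.11 at 4h against 2h (-0.26 to 0.03, adjusted p = 0.285) and -0.02 in rev against 4h (-0.16 to 0.13).

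Sall4 (ENSMUSG00000027547, chr2:168748332-168767943, minus strand), a zinc-finger factor that binds with OCT4 and with the NuRD complex, differed more between the clones than between the groups. Its values were 301, 356, 211 and 224 CPM at 0h, 249.9, 297, 213 and 210.1 CPM at 2h, 274, 272.5, 244 and 263 CPM at 4h, and 318, 312, 291 and 243 CPM in rev. In every group both clone 4 libraries lay above both clone 8 libraries, and the groups overlapped in every comparison. Clone 8 was lower than clone 4 by 0.33 on the log2 scale over all groups (95% interval -0.47 to -0.19, adjusted p = 0.000897). The change at 4h against 0h was -0.02 over both clones (-0.23 to 0.18), made of -0.27 in clone 4 and 0.22 in clone 8. That difference of 0.49 between the clones had an adjusted p of 0.0591, and it passed without the 0h library 1 of clone 4 (0.60, adjusted p = 0.0273), without either 2h library of clone 4, and without either rev library of clone 8 (0.49 each). In rev against 0h, Sall4 changed by 0.29 in clone 8 (95% interval 0.06 to 0.52, adjusted p = 0.102), with an interval that passes the margin, and by -0.06 in clone 4. An opposite-strand gene overlaps 9.5% of the Sall4 exon length.

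**Figure D3:**
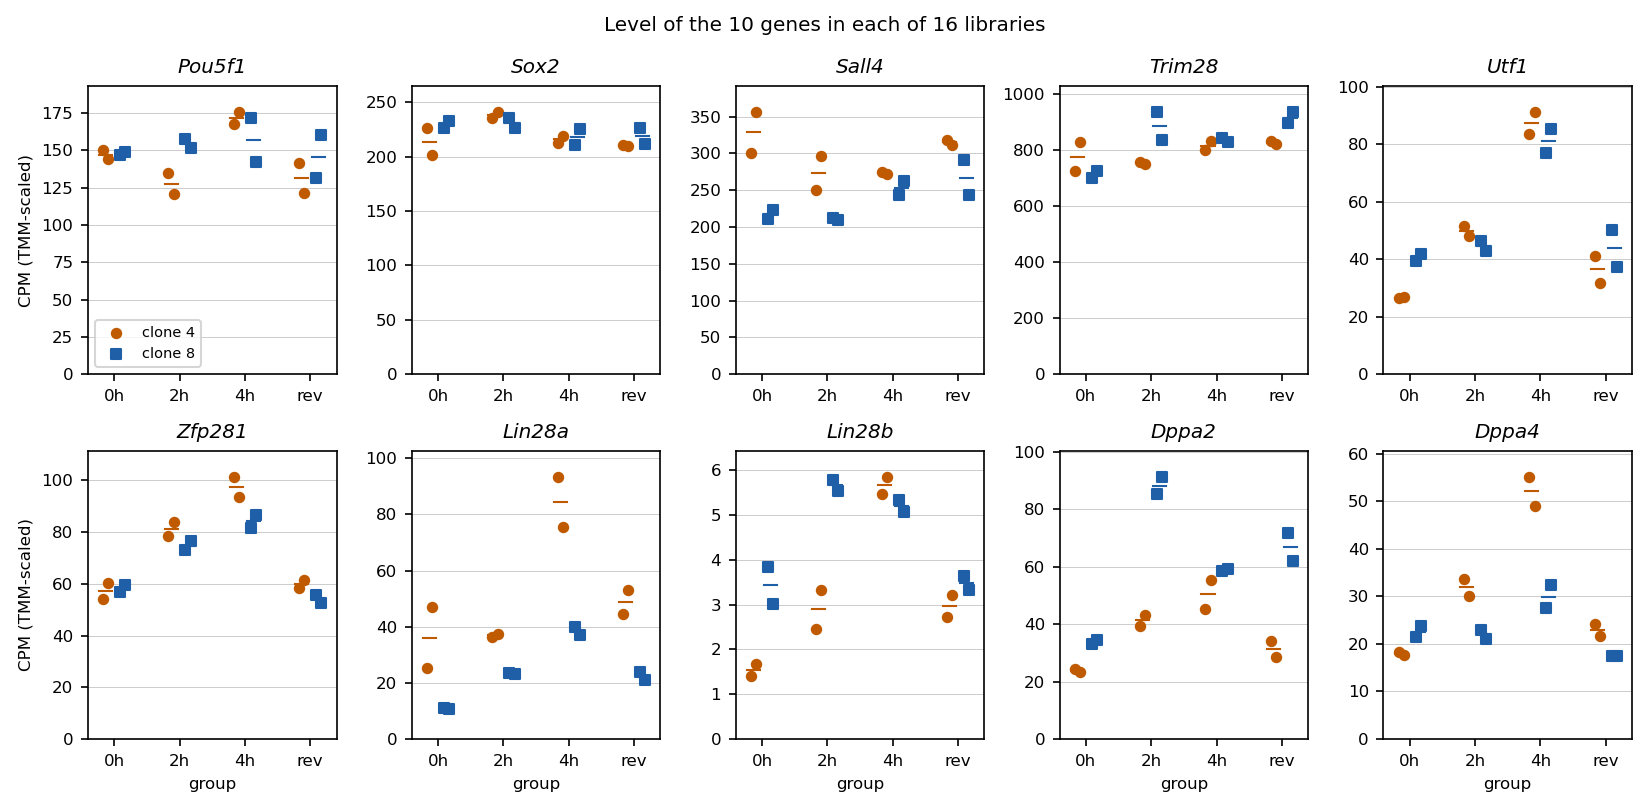
CPM (TMM-scaled, linear axis from 0) of each of the 10 genes in the 16 libraries by group; circles are clone 4, squares clone 8, and short lines the mean of the 2 libraries of a clone. Sox2 stays between 201 and 241 CPM, Utf1 and Zfp281 peak at 4h in both clones, and Lin28a, Dppa2 and Dppa4 differ between the clones.

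Promoter sequences were examined next to the levels of Pou5f1, which held its level within the margin, and of Utf1, Zfp281 and Lin28a, which rose and then fell in rev. The RefSeq windows on GRCm38.p6 at hand covered 7 of the 10 genes, without Sall4, Dppa2 and Dppa4. There were 8 windows, since Pou5f1 has 2 annotated starts, and the 250 bases before each annotated start were searched on both strands. The Sox2 start used, chr3:34649995, lies upstream of the GENCODE gene, so its orientation could not be checked on a transcript. The letters searched were ATGCAAAT (octamer, bound by OCT4), CCGGAAG (ETS), TGAGTCA (AP-1), TGACGTCA (cAMP response element), GCGGGGGCG (EGR), GGGCGG (GC box of SP and KLF factors) and CACGTG (E-box, bound by MYC); a GC box can overlap the EGR letters. The GC box occurred in windows of 5 of the 7 genes, 1 time in the upstream Pou5f1 window and not in its window at chr17:35508557-35508806, 2 times in Sox2 and Trim28 and 4 times in Utf1 and Zfp281, and in 32.7% of 32851 windows of the same length. An E-box occurred in Lin28b, and in 6.02% of windows. The remaining letters, found in 1.55% to 6.91% of windows, were in no window of these 7 genes. The GC box was thus found in genes that stayed within the margin and in genes that rose, so these letters did not separate the 2 kinds among these 7 genes. The Utf1 boxes include an overlapping pair at positions -138 to -128 from the start. The windows shown are chr17:35505782-35506031 (plus strand) for the upstream start of Pou5f1, chr7:139943606-139943855 (plus) for Utf1, chr1:136624651-136624900 (plus) for Zfp281 and chr4:134018817-134019066 (minus) for Lin28a, each printed 5′ to 3′ along the gene with GC boxes of either strand in capitals, to show the box-rich Utf1 and Zfp281 windows beside those with 1 box or none.
Pou5f1: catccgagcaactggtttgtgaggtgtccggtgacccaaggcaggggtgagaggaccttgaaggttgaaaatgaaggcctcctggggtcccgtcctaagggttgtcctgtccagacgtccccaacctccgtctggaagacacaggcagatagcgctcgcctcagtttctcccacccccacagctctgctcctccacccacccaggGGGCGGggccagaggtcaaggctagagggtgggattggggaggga
Utf1: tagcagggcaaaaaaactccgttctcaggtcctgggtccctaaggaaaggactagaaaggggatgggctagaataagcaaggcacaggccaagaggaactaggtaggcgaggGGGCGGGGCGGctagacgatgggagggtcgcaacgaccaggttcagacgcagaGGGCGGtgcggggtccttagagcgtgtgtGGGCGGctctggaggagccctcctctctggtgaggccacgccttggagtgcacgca
Zfp281: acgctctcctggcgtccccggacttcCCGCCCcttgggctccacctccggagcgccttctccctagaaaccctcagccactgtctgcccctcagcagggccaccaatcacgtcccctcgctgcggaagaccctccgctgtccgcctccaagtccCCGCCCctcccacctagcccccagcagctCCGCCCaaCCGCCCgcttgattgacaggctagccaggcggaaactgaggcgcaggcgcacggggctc
Lin28a: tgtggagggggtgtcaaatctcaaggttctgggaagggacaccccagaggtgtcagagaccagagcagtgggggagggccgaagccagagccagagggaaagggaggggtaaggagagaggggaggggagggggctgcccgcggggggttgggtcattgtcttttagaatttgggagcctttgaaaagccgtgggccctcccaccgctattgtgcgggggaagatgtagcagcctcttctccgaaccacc

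Utf1 (ENSMUSG00000047751, chr7:139943789-139945112, plus strand) encodes a chromatin-associated factor whose enhancer is a textbook target of OCT4 and SOX2. With both clones fitted together it rose in both steps and fell in rev. Its values were 26.4, 27, 39.4 and 41.8 CPM at 0h, 51.6, 48, 46.3 and 42.9 CPM at 2h, 83.6, 91.2, 77.1 and 85.5 CPM at 4h, and 41.1, 31.8, 50.3 and 37.5 CPM in rev. Every 4h library lay above every library of the other groups, and rev overlapped with 0h. The change was 0.48 at 2h against 0h (SE 0.14, adjusted p = 0.0202) and 1.32 at 4h against 0h (SE 0.14, adjusted p = 3.88e-06), a rise of 2.05- to 3.04-fold (95% interval). Rev was lower than 4h by 1.09 (SE 0.13, adjusted p = 4.34e-05), and rev against 0h was 0.23 (95% interval -0.06 to 0.52). The call at 2h was lost without either 0h library of clone 4 (0.40 and 0.39, adjusted p = 0.0841 and 0.079) and without either 2h library of clone 4 (0.41 and 0.45, adjusted p = 0.0599 and 0.0512). It was also lost with library totals (0.59, adjusted p = 0.182) and without the clone term (0.48, adjusted p = 0.0736). Within clone 8 the change at 2h was 0.14 (95% interval -0.11 to 0.38, adjusted p = 0.478).

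Zfp281 (ENSMUSG00000041483, chr1:136624901-136630053, plus strand), a zinc-finger factor known for its part in the exit from the naive state, followed the same order with closer replicates. It was measured at 54.1, 60.5, 56.9 and 59.6 CPM at 0h, 78.5, 84, 73 and 76.4 CPM at 2h, 101, 93.7, 81.7 and 86.8 CPM at 4h, and 58.3, 61.5, 55.7 and 52.6 CPM in rev. All 2h and 4h libraries lay above all 0h and rev libraries. The rise was 0.43 at 2h (SE 0.08, adjusted p = 0.000886) and 0.65 at 4h (SE 0.08, adjusted p = 1.58e-05), and rev fell by 0.67 from 4h (SE 0.08, adjusted p = 1.59e-05). Rev against 0h was -0.03 with a 95% interval of -0.19 to 0.14. The step from 2h to 4h was 0.22 (adjusted p = 0.0566), and it passed without the 0h library 1 of clone 4 (0.22, adjusted p = 0.0499) or the 4h library 1 of clone 8 (0.26, adjusted p = 0.0401).

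The LIN28 proteins are RNA-binding proteins that block let-7 maturation. Lin28a (ENSMUSG00000050966, chr4:134003330-134018841, minus strand) was measured at 25.4, 47, 11 and 10.8 CPM at 0h, 36.4, 37.6, 23.5 and 23.3 CPM at 2h, 93.3, 75.7, 39.8 and 37.2 CPM at 4h, and 44.5, 53.3, 23.9 and 21 CPM in rev. In every group both clone 4 libraries lay above both clone 8 libraries, and this gap made the groups overlap although each clone's 4h libraries were its highest. Over both clones the rise at 4h against 0h was 1.46 (SE 0.18, adjusted p = 2.68e-05), the fall in rev from 4h was 0.80 on the log2 scale (-0.80, SE 0.17, adjusted p = 0.00591), and rev stayed above 0h by 0.66 (SE 0.18, adjusted p = 0.0262). The last call was lost without any 1 of 5 libraries, namely the 0h library 1 of clone 4, either 0h library of clone 8, the rev library 2 of clone 4 and the rev library 1 of clone 8 (0.55 to 0.64, adjusted p = 0.0501 to 0.0978). At 2h the change was 0.52 (adjusted p = 0.0548), and it passed without the 0h library 2 of clone 4 (0.85, adjusted p = 0.000623) or the 2h library 1 of clone 4 (0.62, adjusted p = 0.0389). An opposite-strand gene overlaps 5.86% of the Lin28a exon length.

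Lin28b (ENSMUSG00000063804, chr10:45376620-45486395, minus strand), the paralog, was the gene with the fewest counts of the 10, 7 to 79 per library. It stood at 1.4, 1.67, 3.84 and 3.02 CPM at 0h, 2.46, 3.32, 5.77 and 5.54 CPM at 2h, 5.47, 5.84, 5.33 and 5.05 CPM at 4h, and 2.71, 3.2, 3.63 and 3.33 CPM in rev. The 4h libraries were close together and above all 0h and rev libraries. The rise was 0.76 at 2h (SE 0.24, adjusted p = 0.0358) and 1.08 at 4h (SE 0.25, adjusted p = 0.00655). The 4h rise was called in clone 4 (1.84, adjusted p = 0.000112) and was 0.58 in clone 8 (adjusted p = 0.195), a difference between the clones of -1.26 (adjusted p = 0.0896). In rev the change from 4h was -0.71 (95% interval -1.21 to -0.22, adjusted p = 0.0626), and it passed without either 4h library of clone 8 (-0.82 and -0.83, adjusted p = 0.0438 and 0.0434). The call at 2h was lost without any 1 of 6 libraries, both 0h libraries of clone 4, the 0h library 2 of clone 8, the 2h library 2 of clone 4 and both 2h libraries of clone 8 (0.65 to 0.78, adjusted p = 0.0545 to 0.111). The log2 ratio of Lin28a to Lin28b was 3.09 ± 1.65 at 0h, 3.39 ± 0.60 at 4h and 3.37 ± 0.78 in rev (SD, n = 4). The change of the ratio from 0h to 4h was -0.60 in clone 4 and 1.21 in clone 8, so the mean over both clones joins shifts of opposite sign. From 4h to rev it was 0.15 and -0.20. Exact two-sided permutation tests with libraries exchanged within a clone, chosen after the values were seen, gave p = 0.556 for 4h against 0h and p = 0.889 for rev against 4h (adjusted over 4 such ratio tests, 1 each). The smallest p this design allows is 0.0556, so it could not pass 0.05, and the difference between the clones in the ratio was not tested.

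Dppa2 and Dppa4 encode SAP-domain proteins that act as a pair and lie 9670 bases apart on chromosome 16 in the same orientation. Dppa2 (ENSMUSG00000072419, chr16:48303908-48319723, plus strand) was measured at 24.4, 23.3, 33.2 and 34.5 CPM at 0h, 39.5, 43.3, 85.2 and 91.3 CPM at 2h, 45.5, 55.4, 58.4 and 59.3 CPM at 4h, and 34.1, 28.4, 71.8 and 62.2 CPM in rev. All 2h and 4h libraries lay above all 0h libraries. In rev both clone 8 libraries lay above all 4h libraries, and both clone 4 libraries lay below them. The rise was 1.12 at 2h (SE 0.15, adjusted p = 7.45e-05) and 0.94 at 4h (SE 0.15, adjusted p = 0.000451). At 4h against 2h the change was -0.59 in clone 8 (adjusted p = 0.000332) and 0.26 in clone 4 (adjusted p = 0.0975). The difference between the clones in this step was not tested. Rev against 4h was -0.24 (95% interval -0.55 to 0.07, adjusted p = 0.324), and rev was above 0h by 0.70 (SE 0.15, adjusted p = 0.00668). Within the clones, rev against 0h was 0.39 in clone 4 (adjusted p = 0.0355) and 0.97 in clone 8 (adjusted p = 1.69e-06). The clone 4 call was lost when clone 4 was fitted alone (0.39, adjusted p = 0.0616).

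Dppa4 (ENSMUSG00000058550, chr16:48283733-48294237, plus strand) was measured at 18.4, 17.6, 21.5 and 23.7 CPM at 0h, 33.7, 30, 23 and 21.1 CPM at 2h, 55.1, 49, 27.4 and 32.3 CPM at 4h, and 24.2, 21.6, 17.6 and 17.4 CPM in rev. The 4h libraries lay above all 0h and rev libraries, and the clone 4 libraries were the highest of their group at 2h, 4h and rev and the lowest at 0h. The change was 0.35 at 2h (SE 0.16, adjusted p = 0.141), 0.93 at 4h (SE 0.16, adjusted p = 0.000721) and 0.59 at 4h against 2h (SE 0.15, adjusted p = 0.0181). Rev fell by 0.99 from 4h (SE 0.16, adjusted p = 0.000529), and rev against 0h was -0.06 (95% interval -0.41 to 0.29). The 4h against 2h call was lost without the 2h library 2 of clone 8 (0.55, adjusted p = 0.0531) or either 4h library of clone 4 (0.46 and 0.55, adjusted p = 0.0816 and 0.0557), and the 2h change passed without the 0h library 2 of clone 8 (0.50, adjusted p = 0.0459). The log2 ratio of Dppa2 to Dppa4 was 0.50 ± 0.11 at 0h, 0.47 ± 0.63 at 4h and 1.19 ± 0.86 in rev (SD, n = 4). From 0h to 4h it changed by -0.46 in clone 4 and 0.40 in clone 8, and from 4h to rev by 0.50 and 0.95. The exact two-sided permutation test within clones gave p = 1 for the former step, and for the latter p = 0.0556, the smallest it can give (adjusted 0.222).

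Trim28 (ENSMUSG00000005566, chr7:12999114-13031035, plus strand), the co-repressor KAP1 recruited by KRAB zinc-finger proteins, was the most abundant of the 10. It was measured at 725, 830.0, 703 and 725 CPM at 0h, 759.5, 752, 937 and 836 CPM at 2h, 800.0, 834, 844 and 829.6 CPM at 4h, and 832, 824, 899 and 936 CPM in rev. All groups overlapped, and the group mean was lowest at 0h (746 ± 57.2 CPM) and highest in rev (873 ± 53.6 CPM, SD, n = 4). The change was 0.15 at 4h against 0h (95% interval -0.03 to 0.32, adjusted p = 0.268) and 0.22 in rev against 0h (0.05 to 0.40, adjusted p = 0.093). The latter passed without the 0h library 2 of clone 4 (0.30, adjusted p = 0.0363) and in DESeq2 (0.22, adjusted p = 0.0451). Within clone 8 it was 0.36 (adjusted p = 0.0305) and in clone 4 it was 0.09 (adjusted p = 0.603); the difference between the clones in this comparison was not tested. At 2h against 0h Trim28 also rose in clone 8, by 0.31 (95% interval 0.09 to 0.53, adjusted p = 0.0431), beside -0.04 in clone 4 (adjusted p = 0.817). That difference between the clones was 0.35 (adjusted p = 0.151), and it passed in DESeq2 (0.37, adjusted p = 0.0489).

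The clones were then compared directly. Averaged over the groups, 5 of the 10 genes differed between clone 8 and clone 4, where 34.9% of all tested genes did. Lin28a was lower in clone 8 by 1.14 (a log2 change of -1.14, SE 0.13, adjusted p = 7.01e-07) and Dppa2 was higher by 0.74 (SE 0.10, adjusted p = 1.45e-05). Lin28b was higher by 0.51 (adjusted p = 0.0252), and Dppa4 and Sall4 were lower (-0.38 and -0.33, adjusted p = 0.0122 and 0.000897). With library totals the calls for Dppa4 and Sall4 were lost (-0.27 and -0.26, adjusted p = 0.347 and 0.338). The call for Lin28b was lost without the 0h library 1 of clone 8 or any 2h library (0.41 to 0.49, adjusted p = 0.0513 to 0.0776), and Zfp281 passed without the 0h library 1 of clone 4 (-0.14, adjusted p = 0.0425). For Pou5f1, Sox2, Trim28, Utf1 and Zfp281 the intervals of the clone difference lay between -0.23 and 0.32.

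The log2 change between groups also differed between the clones for part of the genes. For 2h against 0h the clones' changes differed in 4 of 10 genes (7.94% of tested genes): Utf1 rose by 0.90 in clone 4 and was 0.14 in clone 8 (difference -0.76, adjusted p = 0.0074). Utf1 started lower in clone 4, at 26.4 and 27 CPM at 0h against 39.4 and 41.8 in clone 8. At 2h it stood at 51.6 and 48 CPM in clone 4 and 46.3 and 42.9 in clone 8. Dppa4 rose by 0.83 in clone 4 and was -0.03 in clone 8 (difference -0.86, adjusted p = 0.00323). Lin28a was 0.00 in clone 4 and rose by 1.10 in clone 8 (difference 1.10, adjusted p = 0.00407), and Dppa2 rose in both, by 0.80 and 1.38 (difference 0.59, adjusted p = 0.0300). Thus at 2h Utf1 and Dppa4 moved more in clone 4, and Lin28a and Dppa2 more in clone 8. In DESeq2 the Dppa2 difference did not pass (0.60, adjusted p = 0.0684). The Lin28a difference was lost without the 0h library 2 of clone 4, its highest 0h library (0.57, adjusted p = 0.159), and the Dppa2 difference without any 1 of 6 libraries, all 4 at 0h and the 2h libraries clone 4 number 1 and clone 8 number 2 (0.52 to 0.64, adjusted p = 0.0696 to 0.107).

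For 4h against 0h the clones differed in 2 of 10 genes (5.72% of tested genes). Utf1 rose by 1.70 in clone 4 and 1.00 in clone 8 (difference -0.70, adjusted p = 0.0135), and Dppa4 rose by 1.55 in clone 4 and was 0.40 in clone 8 (difference -1.15, adjusted p = 8.76e-05). The Utf1 difference was lost without any 1 of 4 libraries, both 0h libraries of clone 4, the 0h library 2 of clone 8 and the 4h library 1 of clone 8 (-0.71 to -0.62, adjusted p = 0.0513 to 0.0843). Without the 0h library 1 of clone 4 the Lin28a difference passed (0.96, adjusted p = 0.00225), beside 0.61 (adjusted p = 0.16) with it. Of the 6 ERK response genes, 4 also rose less in clone 8 than in clone 4 at 4h (differences -3.02 to -2.43), and their part in the differences of the 10 genes was not tested. For rev against 4h 1 of 10 genes differed (13.2% of tested genes): Dppa2 fell by 0.67 in clone 4 and was 0.17 in clone 8 (difference 0.84, adjusted p = 0.000619; 0.76 without the rev library 1 of clone 8, adjusted p = 0.00341). Utf1, Zfp281, Lin28a and Dppa4 were lower in rev in each clone, by -1.26 and -0.93, -0.71 and -0.64, -0.80 and -0.81, and -1.20 and -0.76 in clones 4 and 8.

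**Figure D4:**
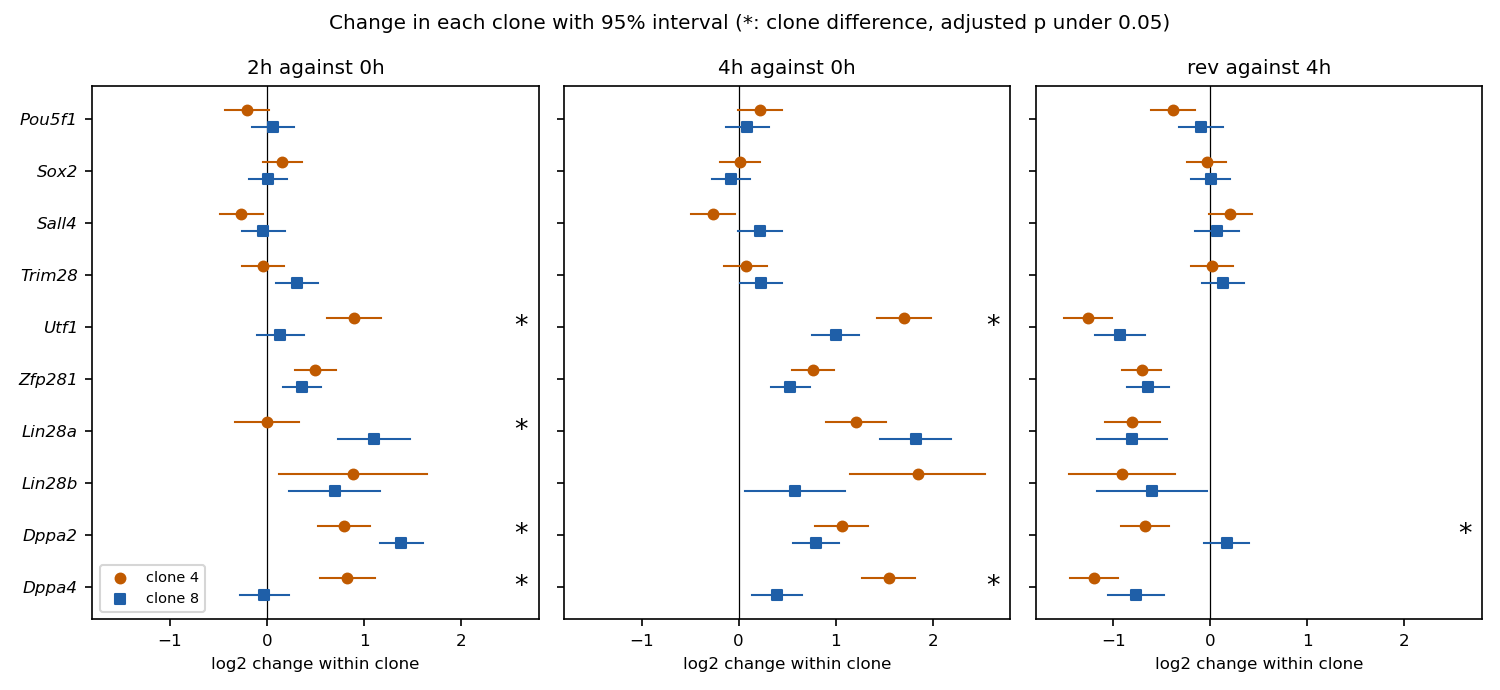
Log2 change of the 10 genes within clone 4 (circles) and clone 8 (squares) with 95% intervals, in 3 panels, 2h and 4h each against 0h and then rev against 4h; a star marks genes whose change differed between the clones at an adjusted p under 0.05. Stars stand at Utf1, Lin28a, Dppa2 and Dppa4 for 2h, at Utf1 and Dppa4 for 4h and at Dppa2 for rev.

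The share of each gene's variance over the 16 libraries (sum of squares of log2 CPM) was taken as a description. It is a proportion, so a gene with small changes can also have a large group share. Group took 91.7% for Zfp281 and 86.1% for Utf1. For Lin28a group and clone took 44.1% and 47.0%, and for Dppa2 49.5% and 38.3%. For Sox2, Trim28 and Pou5f1, which stayed within the margin, group took 47.1%, 46.0% and 38.6%, so this share did not set them apart. Sall4 was the gene with most of its variance between the clones, 53.4% against 18.3% between groups. The share of group by clone, where the clones' group changes differ, ran from 2.07% for Zfp281 to 29.0% for Trim28. It was 24.5% for Pou5f1 and 18.4% each for Lin28b and Dppa4.

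Levels were compared between genes as CPM per kilobase of exon at 0h, where the exon length is that of the union of annotated exons. Trim28 was highest (179 ± 13.7), then Sox2 (108 ± 6.88), Pou5f1 (65.6 ± 1.23), Sall4 (49.3 ± 12.3) and Utf1 (27.4 ± 6.61; SD, n = 4). The ranges over libraries of Sall4 and Pou5f1 overlapped (38.2 to 64.3 and 64.1 to 66.8), while those of the other neighbours among these 5 genes did not. Dppa4 (12.2 ± 1.71), Dppa2 (11.8 ± 2.37) and Zfp281 (11.7 ± 0.58) could not be placed in an order, since their ranges overlapped. Lin28a followed with 5.89 ± 4.27, its highest library at 11.8, and Lin28b was lowest (0.27 ± 0.13).

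Related genes were examined by role, in lists chosen with earlier results of these data known. At 4h against 0h, 7.35% of tested genes were called higher and 5.56% lower; at rev against 4h, 4.50% were called higher and 5.10% lower. Of 8 OCT4 and SOX2 target genes, 2 were higher at 4h than at 0h, Utf1 itself and Tdgf1, a Nodal co-receptor (0.76), and 2 were lower, the growth factor gene Fgf4 (-1.13) and Nanog (-0.75), with a list median of -0.16 beside -0.01 over all tested genes. The clones differed in both changes: Fgf4 was -1.88 in clone 4 and -0.50 in clone 8 (difference 1.39, adjusted p = 6.81e-07), and Nanog -1.32 and -0.30 (adjusted p of the difference 0.000308), the last not called (adjusted p = 0.181). In rev, Fgf4 (1.34), Nanog (1.08) and Fbxo15 (0.80) were higher than at 4h and Utf1 and Tdgf1 lower (-1.09 and -0.33). Of 10 naive state genes, 2 were higher at 4h (Klf5 and Nr0b1, 1.06 and 0.74) and 4 lower (Prdm14, Nanog, Klf4 and Tfcp2l1, -1.12 to -0.50), and these 4 changed by -1.75 to -0.99 in clone 4 and were -0.71 to -0.11 in clone 8 (differences 0.87 to 1.30, each called). Thus the calls among these targets and naive genes went in both directions at 4h, while the 6 called among the 10 general factors were all higher. Whether the lists differ from the 10 genes was not tested.

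In the LIN28 and let-7 pathway 4 of 12 genes were higher at 4h: Hmga2, a let-7 target (2.501, from 1.52 CPM at 0h), Trim71, a let-7 target and RNA-binding protein (0.71), and the RNA-binding genes Igf2bp1 and Igf2bp2 (0.37 and 0.34). In rev 3 of the 12 were lower than at 4h, Hmga2 (-2.26), Igf2bp2 (-0.56) and Igf2bp3 (-0.31). The list median at 4h was 0.13. Among 11 genes of the TRIM28 repressor complex, 3 were higher at 4h, the remodeller Atrx (0.64), the imprint-guarding KRAB zinc-finger gene Zfp57 (0.49) and the H3K9 methyltransferase gene Setdb1 (0.31), beside 0.15 for Trim28 itself, and Atrx and Zfp57 were lower in rev (-0.46 and -0.68). Of 11 genes of the NuRD complex, a partner of SALL4 and ZFP281, Rbbp7 was higher at 4h (0.46) and Mta1 lower (-0.31).

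Genes of the early embryo's 2-cell stage, several of which DPPA2 and DPPA4 are known to activate, were listed together with further Dppa genes. Of the 10 listed, 6 could be tested, and these include Dppa genes. At 2h, 4 of the 6 were called higher than at 0h, namely Zscan4c, Zscan4d, Zscan4f and Zfp352 (1.42 to 1.91). Their means at 0h were 0.238 to 1.19 CPM, so few counts stand behind them. Genes this low at 0h pass the filter on low counts only with other libraries in which they are higher. The 4 of 6 therefore cannot be weighed against the 9.49% of tested genes called higher. The Zscan4 genes are near-identical copies whose reads can be split or shared. The median of the tested list, Dppa genes included, was 1.60 at 2h and 0.48 at 4h. Within clone 8 these 4 rose by 1.72 to 2.48 at 2h. In clone 4 none was called, but the SEs there were 0.80 to 1.97. The differences between the clones did not pass the test (adjusted p = 0.0775 to 0.835). With such SEs this does not show that the clones changed alike. Between the clones 34.9% of all tested genes differed. With the same limit from the filter, 4 of the 6, Dppa genes included, were higher and 1 lower in clone 8 than in clone 4. Dppa2 was higher in clone 8 and Dppa4 lower, and their part in these differences was not tested. Of 12 family paralogs, Sox4 (1.90) and Pou3f1 (1.43) were higher at 4h and Sox21 was lower (-0.82), from 2.01, 3.42 and 16.9 CPM at 0h, beside -0.03 for Sox2 and 0.16 for Pou5f1. Sox4 and Pou3f1 rose in clone 4 (3.37 and 2.57) and were 0.22 each in clone 8 (differences -3.15 and -2.35, adjusted p = 0.000251 and 0.000194). Of 8 formative or primed genes tested, Pou3f1 was the 1 called higher at 4h; the list median was 0.59.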

How the data were processed

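RNA was measured in 16 libraries, grouped by the sample titles into 4 groups with 2 clones each. Per the labels' protocols, libraries were made after depletion of ribosomal RNA. The authors deposited raw counts per Ensembl gene ID, without normalization. Per the submitters' processing notes, bcl2fastq 2.19.1, STAR 2.5.3a and the build mm10 were used; the counting program, annotation and strand setting are not given in the sources used here. Symbols and positions came from GENCODE M21 on GRCm38 by gene ID (52489 of 52636 matched), and promoter windows from RefSeq on GRCm38.p6.

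Low genes were removed with filterByExpr (minimum count 10, total 15, by group). Groups were tested with the quasi-likelihood F test of edgeR (version 4.0.16 under R 4.3.3), with TMM scaling, group plus clone, over all 16 libraries. Adjustment was Benjamini-Hochberg over the 12742 tested genes, with calls under 0.05. Intervals are 95% and the margin of 0.5 on the log2 scale was set by choice. Changes within clones and their differences came from a fit with 1 mean for each of the 8 group-clone combinations. CPM refer to the kept genes. The procedure was tested on simulated counts for 4h against 0h, with changes set at 4h only and no difference between the clones. That trial therefore does not cover the comparisons between clones. Alternatives were other scalings, no filter, DESeq2 1.42.0, no clone term, each clone alone, the replicate number as a block and leaving out each library.

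The 10 genes, the gene lists and the tests were chosen with earlier results of these data known. All 10 genes are named whatever their values; from each list at most the 4 called genes with the largest change are named. The gene Dux of the list of 2-cell-stage and Dppa genes was not matched. The 2 libraries of a clone and group were not copies of each other: their counts gave a chi-square of 1.32 to 3.47 per degree of freedom. Counting error alone gives about 1, and the lowest value was that of 0h in clone 8. These values do not tell whether the 2 libraries came from separate cultures. Other pairs of libraries were not compared in this way. Limits from few counts cover counting error only. Numbers 1 and 2 were not taken to pair the libraries across groups in the main fit.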

Additional observations from a re-analysis of the deposited data

Results flagged for a closer look

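Among 40 sets of 4 libraries (10 genes in 4 groups), 1 held a library far from the others: Sox2 in rev library 1 of clone 8, at 226 CPM, with a gap to its nearest neighbour of 0.871 of the group's range. Chance marks about 1 set in 20. This is also the library with the fewest counts outside the dominant features.

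Changes that differed between the clones were marked for Utf1, Lin28a, Dppa4 and Dppa2. For 2h against 0h, the clone 8 change minus the clone 4 change was -0.76 for Utf1, 1.10 for Lin28a, -0.86 for Dppa4 and 0.59 for Dppa2. For 4h against 0h it was -0.70 for Utf1 and -1.15 for Dppa4. For rev against 4h it was 0.84 for Dppa2. At 0h the clone 4 libraries held 26.4 and 27 CPM of Utf1 against 39.4 and 41.8 in clone 8, and 25.4 and 47 CPM of Lin28a against 11 and 10.8, so the clones also started from different levels.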

How the results depend on the processing

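Over 25 other settings and 1 chosen after the data were seen, the 10 genes gave 2440 values, of which 2321 kept their side of the threshold (65 of them, not called, with the other sign), 70 lost a call, 49 gained a call and 0 reversed a called direction. Scaling by library totals, which include the dominant features, left 1 gene called at 2h against 0h, 1 at 4h against 2h, 0 in rev against 0h, 3 for clone 8 against clone 4, and 1, 0 and 0 for the clone differences at 2h, 4h and rev. It also moved the median change of all genes to 0.11 at 2h against 0h, -0.14 at 4h against 2h, and in rev to -0.20 from 4h and -0.24 from 0h, and the median clone differences to 0.56, 0.35 and -0.67. Without the clone term the genes called numbered 2 at 2h and 3 at 4h (each against 0h), 1 at 4h against 2h and 0 in rev against 0h, and 3 differed among the groups. In clone 4 alone 5 were called at 4h against 2h, 7 in rev against 4h and 1 in rev against 0h. Averaging the clones' changes gave 5 and 7 for the first pair of these. The cause was not tested. Leaving out 1 library at a time gave 2 to 4 genes at 2h against 0h, 6 at 4h against 0h, 2 to 4 at 4h against 2h, 4 to 6 in rev against 4h, 1 to 3 in rev against 0h, 2 to 4 for the clone difference at 2h and 1 to 3 at 4h. Where this left 1 library of a clone in a group, the fit assumed that it varies like the others.

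Calls over all 12742 genes moved with the same choices. At 2h against 0h 2162 (1209 higher) became 446 (348 higher) with library totals, 2257 (796 higher) with totals outside the dominant features, 757 without the clone term and 3673 with averaged clone changes. In the same order, 4h against 0h went from 1645 (936 higher) to 513 (329 higher), 1766 (701 higher), 546 and 3103, rev against 4h from 1224 (574 higher) to 532 (85 higher), 1243, 251 and 2610, and rev against 0h from 1332 (702 higher) to 450 (107 higher), 1420 (533 higher), 273 and 2721. At 4h against 2h 1547 became 385, 266 and 3439 with library totals, no clone term and averaged changes, and any difference went from 3434 to 1236, 1000 and 6003. Clone 8 against clone 4 went from 4445 (2178 higher) to 2193 (1428 higher) with library totals. The clone differences at 2h, 4h and rev, 1012 (373 higher), 729 and 1681 (803 higher), became 474 (448 higher), 157 and 1913 (119 higher) with library totals and 526, 443 and 999 in DESeq2; totals outside the dominant features gave 1006 (490 higher) at 2h.

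With the replicate number as a block, 4 genes were called at 2h and 6 at 4h (each against 0h), 3 at 4h against 2h, and in rev 4 against 4h and 2 against 0h, the same genes as without it. Deviations of same-numbered libraries of a clone correlated at -0.01 on average once group and clone means were removed. With 2 libraries per clone and group, this value does not settle whether the numbers pair libraries. Lin28b, with 7 to 79 counts per library, is the gene most limited by depth.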
